A study of Mus musculus with 3 samples.

Results

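The CD3 complex and the first signalling steps behind the T cell receptor (TCR) were followed through 9 genes named for their known place in that pathway: *Cd3d*, *Cd3e*, *Cd3g*, *Cd247*, *Lck*, *Fyn*, *Zap70*, *Lat* and *Lcp2*. All 9 were present among the 18029 genes of the count table, and all 9 passed the filter on low counts in both lineages. The spleen T cells came from B6D2F1 mice that had been irradiated and transplanted with bone marrow and T cells from B6 mice, an allogeneic bone marrow transplant in which the donor T cells attack the recipient. A small number of TEa cells, CD4+ T cells with 1 transgenic TCR that recognises a recipient antigen, were given with the graft to all groups. Recipients were treated from day 0 to day 6 with saline, with cyclosporine (CSA) at 5 mg/kg or with CSA at 50 mg/kg, and spleens were taken on day 7. No group without a transplant was analysed here, and the ages of the mice are not given in the sources used here.

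Each group held 6 mice, which were combined 2 by 2 into 3 pools, each with its own hashtag. Sorting on CD90.2, CD4 and CD8 gave CD4+ and CD8+ cells, which were mixed at equal numbers and run as 1 droplet capture per group, so treatment and capture cannot be told apart. After 280 TEa cells were set aside, 10091 CD4 and 10833 CD8 T cells were summed per pool, and the pool was the replicate. Pool totals ran from 3994968 to 7592334 unique molecular identifiers (UMIs, counted RNA molecules) in CD4 cells and from 4392100 to 11454636 in CD8 cells. Depth moved with dose: the median UMIs per CD4 cell were 3097, 4396 and 5979.5 in the saline, 5 mg/kg and 50 mg/kg groups, and the median per CD8 cell was 4108, 6121.5 and 7183. Between 58 and 85 cell barcodes were shared by any pair of captures. *Cd8a* had no UMI in the cells called CD4 and *Cd4* had none in those called CD8, in any pool, though the other CD8 chain gene, *Cd8b1*, had UMIs in the CD4 cells (141 to 153 CPM in saline and 20.8 to 25.8 at 50 mg/kg).

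CSA binds cyclophilin and blocks calcineurin, the phosphatase that lets NFAT transcription factors enter the nucleus after TCR ligation. The TCR itself has no signalling tail. Its signal passes through the CD3 delta, epsilon and gamma chains and the zeta chain, whose immunoreceptor tyrosine-based activation motifs (ITAMs) are phosphorylated by the Src-family kinases Lck and Fyn. Zap70 docks on the phosphorylated motifs and phosphorylates the membrane adaptor LAT, which assembles a complex with the cytosolic adaptor SLP-76, the product of *Lcp2*. The calcium signal that activates calcineurin lies downstream of this complex, so the 9 genes encode steps that precede the target of the drug.

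In the GENCODE annotation of the mouse build GRCm38, the 3 CD3 chain genes lie side by side on chromosome 9. *Cd3g* occupied chr9:44969572-44980431 on the minus strand, *Cd3d* chr9:44981786-44987339 on the plus strand and *Cd3e* chr9:44998740-45009627 on the minus strand. *Cd3g* and *Cd3d* are read in opposite directions from starts 1355 bases apart. The bases before the RefSeq start sites are printed for *Lat* and *Cd3d*, which had the largest rise in CD4 and in CD8 cells, for *Lcp2* and *Fyn*, the members lower at 50 mg/kg under all 3 scalings tried, and for *Cd3g* as the divergent neighbour of *Cd3d*. Each line gives the 250 bases upstream of the start, 5′ to 3′ on the strand of the gene, from RefSeq on GRCm38.p6. Capitals mark GGAAA, the core that NFAT factors read, or its reverse complement TTTCC. The windows are chr9:44981536-44981785 (plus) for *Cd3d*, chr9:44980432-44980681 (minus) for *Cd3g*, chr7:126369569-126369818 (minus) for *Lat*, chr11:34046678-34046927 (plus) for *Lcp2* and chr10:39369549-39369798 (plus) for *Fyn*.
Cd3d: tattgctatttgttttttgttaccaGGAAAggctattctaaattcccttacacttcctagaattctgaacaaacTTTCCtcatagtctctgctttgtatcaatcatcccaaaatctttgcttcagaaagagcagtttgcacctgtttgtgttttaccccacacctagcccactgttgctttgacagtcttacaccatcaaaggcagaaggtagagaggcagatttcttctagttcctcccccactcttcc
Cd3g: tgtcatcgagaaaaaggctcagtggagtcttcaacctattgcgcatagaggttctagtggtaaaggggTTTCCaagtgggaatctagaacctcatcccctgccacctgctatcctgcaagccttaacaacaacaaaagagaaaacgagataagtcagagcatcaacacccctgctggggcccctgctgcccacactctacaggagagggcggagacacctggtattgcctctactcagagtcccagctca
Lat: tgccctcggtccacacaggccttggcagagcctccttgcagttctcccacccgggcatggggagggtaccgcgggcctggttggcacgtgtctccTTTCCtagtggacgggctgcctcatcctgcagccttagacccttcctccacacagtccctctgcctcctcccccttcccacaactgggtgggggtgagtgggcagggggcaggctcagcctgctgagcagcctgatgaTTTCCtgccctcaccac
Lcp2: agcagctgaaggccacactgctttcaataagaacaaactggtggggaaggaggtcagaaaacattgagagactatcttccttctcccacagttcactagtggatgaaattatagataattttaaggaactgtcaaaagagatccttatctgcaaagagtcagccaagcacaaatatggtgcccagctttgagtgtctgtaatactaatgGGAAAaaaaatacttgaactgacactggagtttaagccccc
Fyn: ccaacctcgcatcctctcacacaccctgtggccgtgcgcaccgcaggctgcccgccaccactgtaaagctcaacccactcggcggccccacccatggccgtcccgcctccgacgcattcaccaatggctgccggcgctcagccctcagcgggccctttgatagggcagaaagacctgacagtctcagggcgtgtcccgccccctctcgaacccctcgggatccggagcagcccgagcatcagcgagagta

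Counting 12 start sites for the 9 members, the GGAAA core occurred on either strand in 7 windows, belonging to 7 members. It was absent upstream of *Fyn* and *Cd247*. Among all 32851 promoter windows of this length, 55.6% held it. The ETS core GGAAGT, which shares the letters GGAA with the NFAT core but cannot match at the same place, occurred in 6 of the 12 windows and in 19.7% of all windows. TGTGGT, the RUNX core, was found in 2 of the 12 and in 14.0% of all windows. The E-box CANNTG was found in 10 of the 12 and in 66.2% of all windows. The *Fyn* window held none of the 4 motifs and had a GC content of 67.2%. These matches describe letters in a window and do not say whether a factor was bound.

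Of the 9 members, 7 were higher and 2 lower at 5 mg/kg than in saline, in CD4 and in CD8 T cells alike. Levels are given as TMM CPM, the UMIs of a gene relative to all UMIs of its pool after TMM scaling, a scaling in which most genes are taken not to change, and tests are edgeR quasi-likelihood tests on pool sums with Benjamini-Hochberg adjustment over all genes tested and a threshold of 0.05. In CD4 cells at 5 mg/kg all 9 passed, 7 higher and 2 lower, where 51.8% of all genes tested passed. At 50 mg/kg 8 passed, 6 higher and 2 lower, where 70.5% of all genes passed. In CD8 cells all 9 passed at both doses, 7 higher and 2 lower, where 60.2% of all genes passed at 5 mg/kg and 74% at 50 mg/kg. With the shares of cells per cluster held at their mean over the pools, 4 members passed at 5 mg/kg in CD4 cells (2 higher, 2 lower) and 5 in CD8 cells (2 higher, 3 lower). At 50 mg/kg 8 passed in each lineage (5 higher, 3 lower). That setting used limma on CPM without TMM in place of edgeR. It also covered only clusters with at least 10 cells in every pool, which left out CD4 C6, C11 and C12 and CD8 C4 and C8. Of all genes, 3099 of 10568 passed there in CD4 cells at 5 mg/kg. Which of these differences lowered the member counts was not tested. For the other counts of that setting no share of all genes is given, so they set no member apart. With 51.8% to 74% of all genes called with TMM, passing the test alone sets no member apart. The direction and size are therefore given for each. The median log2 change of the members was 0.39 and 0.50 in CD4 cells at the lower and higher dose, and 0.49 and 0.71 in CD8 cells, against medians over all genes between −0.01 and 0.00. Because each pool sum is a sample of mixed cells, fewer cells of a type and less RNA per cell cannot be told apart in these values.

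**Figure D1:**
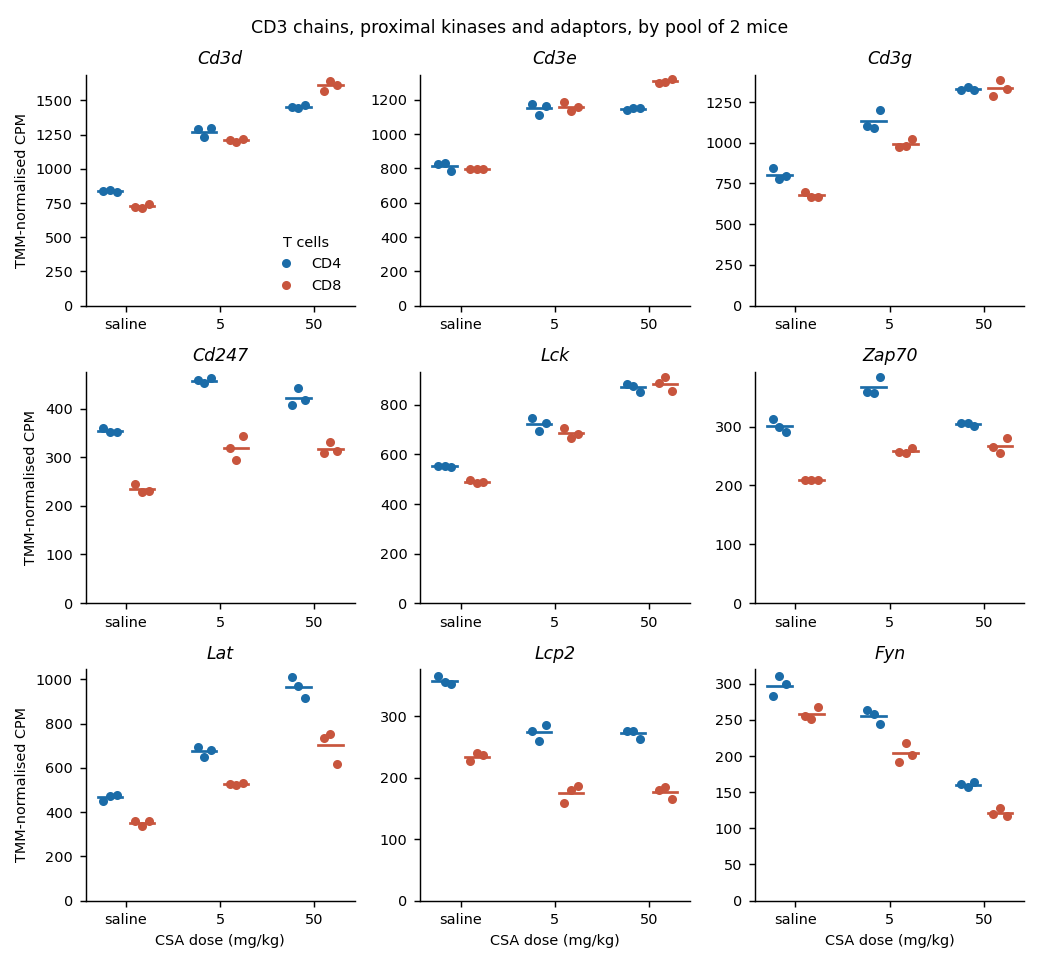
TMM CPM of each of the 9 genes (vertical axes, from 0) in every pool of 2 mice, by CSA dose (horizontal axes), with CD4 T cells in blue and CD8 T cells in red. Points are pools and bars are means of 3 pools: *Lat* rises from 451 to 479 in saline CD4 pools to between 918 and 1011 at 50 mg/kg, and *Fyn* falls from between 283 and 310 to between 157 and 164; with scaling to total UMIs the *Cd247* and *Zap70* changes at 50 mg/kg turn negative.

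Scaling set how much of this pattern was seen. When pools were scaled to their total UMIs alone, the median of all genes moved to −0.37 and −0.45 in CD4 cells at 5 and 50 mg/kg and to −0.43 and −0.53 in CD8 cells, on the log2 scale. Under that scaling 14.0% and 20.4% of the genes called in CD4 cells were higher, against 50.5% and 49.2% with TMM. In CD8 cells the corresponding shares were 15.8% and 19.9%, against 49.7% and 50.1%. With total-UMI scaling 6 members passed in CD4 cells at 5 mg/kg (4 higher, 2 lower) and 8 at 50 mg/kg (4 higher, 4 lower). In CD8 cells 7 passed at 5 mg/kg (4 higher, 3 lower) and 8 at 50 mg/kg (5 higher, 3 lower). Statements below therefore give both scalings where they part. The share of all genes called with total-UMI scaling is not given, here or below, so counts under it set no gene apart.

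*Cd3d*, the delta chain, showed the widest rise of the 3 CD3 chains. CD4 pools stood at 838, 847 and 827 TMM CPM in saline, at 1292, 1229 and 1296 with 5 mg/kg, and at 1455, 1444 and 1464 with 50 mg/kg. CD8 pools stood at 723, 716 and 745 in saline, at 1211, 1195 and 1219 with 5 mg/kg, and at 1569, 1643 and 1616 with 50 mg/kg. No pool of one group overlapped another group in either lineage. The share of all genes without such overlap was not counted, so this and the overlaps given below set no member apart. The log2 change at 50 mg/kg was 0.80 ± 0.032 (SE, 3 pools per group) in CD4 cells, with an edgeR adjusted p of 5.24e-15, and 1.14 ± 0.034 in CD8 cells, with an adjusted p of 3.57e-15. With total-UMI scaling it was 0.36 and 0.61, and both remained past the threshold.

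The epsilon chain gene *Cd3e*, whose product pairs with both other CD3 chains, rose at the lower dose and less with the further step. Its CD4 pools ranged from 788 to 830 TMM CPM in saline, from 1113 to 1173 at 5 mg/kg and from 1142 to 1154 at 50 mg/kg. In CD8 pools the ranges were 796 to 799, 1135 to 1186 and 1298 to 1321. Saline pools lay below every CSA pool. The change at 50 mg/kg was 0.50 ± 0.034 in CD4 and 0.71 ± 0.033 in CD8 cells on the log2 scale with TMM, and 0.06 and 0.18 with total-UMI scaling, where the CD4 value missed the threshold (edgeR adjusted p = 0.0994).

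*Cd3g*, the gamma chain, rose from a range of 775 to 844 TMM CPM in saline CD4 pools to 1092 to 1200 at 5 mg/kg and 1323 to 1341 at 50 mg/kg. Its CD8 pools rose from 664 to 696 through 972 to 1023 to 1289 to 1383. The 3 dose groups did not overlap in either lineage. On the log2 scale the change at 50 mg/kg was 0.73 ± 0.039 in CD4 and 0.98 ± 0.038 in CD8 cells with TMM, and 0.29 and 0.45 with total-UMI scaling, with all 4 past the threshold.

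*Cd247* encodes the zeta chain, which carries 3 ITAMs and limits how many receptors reach the surface. CD4 pools held 360, 352 and 351 TMM CPM in saline, 458, 452 and 463 at 5 mg/kg, and 407, 442 and 418 at 50 mg/kg. CD8 pools held 244, 229 and 230 in saline, 319, 295 and 343 at 5 mg/kg, and 309, 331 and 312 at 50 mg/kg. CSA pools lay above saline pools, with the CD4 level lower at the higher dose than at the lower one. The log2 change at 50 mg/kg was 0.25 ± 0.039 in CD4 and 0.44 ± 0.051 in CD8 cells with TMM (edgeR adjusted p 6.27e-06 and 4.21e-07), but −0.18 and −0.09 with total-UMI scaling, so the direction of *Cd247* depended on the scaling. At 5 mg/kg total-UMI scaling gave 0.01 and 0.02 (edgeR adjusted p = 0.817 and 0.707).

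The kinases did not move together: *Lck* rose, *Fyn* fell, and *Zap70* depended on lineage and scaling. *Lck*, the kinase held by the CD4 and CD8 coreceptors, stood at 555, 554 and 548 TMM CPM in saline CD4 pools, at 746, 696 and 727 with 5 mg/kg, and at 883, 876 and 853 with 50 mg/kg. Its CD8 pools stood at 495, 484 and 490, then 706, 666 and 684, then 889, 912 and 857. Groups did not overlap in either lineage on this scale, whereas the CD4 pools at 5 mg/kg overlapped saline as a share of total UMIs. With total-UMI scaling the change at 5 mg/kg was 0.03 in CD4 and 0.06 in CD8 cells and missed the threshold (edgeR adjusted p = 0.468 and 0.164). The log2 change at 50 mg/kg was 0.66 ± 0.035 in CD4 cells and 0.86 ± 0.037 in CD8 cells with TMM, and 0.22 and 0.33 with total-UMI scaling, each past the threshold.

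*Fyn*, the second Src-family kinase of T cells, moved the other way, with a further step at the higher dose. CD4 pools stood at 283, 310 and 300 TMM CPM in saline, at 264, 259 and 244 with 5 mg/kg, and at 161, 157 and 164 with 50 mg/kg. In CD8 pools *Fyn* stood at 256, 252 and 267 in saline, at 192, 218 and 202 with 5 mg/kg, and at 119, 128 and 118 with 50 mg/kg. The 3 groups were ordered without overlap in both lineages. At 50 mg/kg *Fyn* fell by 0.89 ± 0.046 in CD4 cells and by 1.09 ± 0.051 in CD8 cells on the log2 scale (edgeR adjusted p 3.52e-13 and 1.40e-12), a 1.85-fold lower level in CD4 cells. With total-UMI scaling the falls were larger, −1.33 and −1.62. Over all 22 settings tried, the change at 50 mg/kg ran from −1.33 to −0.86 in CD4 and from −1.62 to −1.06 in CD8 cells.

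*Zap70*, the kinase recruited to the ITAMs, stood at 312, 299 and 291 TMM CPM in saline CD4 pools, at 359, 357 and 384 with 5 mg/kg, and at 306, 306 and 301 with 50 mg/kg. CD8 pools stood at 209, 210 and 208 in saline, at 256, 255 and 264 with 5 mg/kg, and at 265, 255 and 281 with 50 mg/kg. The CD4 pools at the higher dose fell inside the saline range, whereas every CD8 pool given CSA lay above saline on this scale. In CD4 cells the log2 change at 50 mg/kg was 0.02 ± 0.042 (edgeR adjusted p = 0.699), and in CD8 cells 0.35 ± 0.042 (adjusted p = 5.77e-07). Total-UMI scaling gave −0.42 and −0.18 at 50 mg/kg, both negative and past the threshold, and −0.07 and −0.12 at 5 mg/kg (edgeR adjusted p = 0.136 and 0.0179), so no direction can be given for *Zap70* that holds under both scalings.

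The adaptors parted in the same manner as the Src-family kinases. *Lat*, the transmembrane scaffold phosphorylated by Zap70, had the largest rise among the members in CD4 cells. Its CD4 pools stood at 451, 471 and 479 TMM CPM in saline, at 693, 650 and 681 with 5 mg/kg, and at 1011, 972 and 918 with 50 mg/kg. CD8 pools stood at 361, 336 and 358 in saline, at 529, 523 and 533 with 5 mg/kg, and at 733, 754 and 618 with 50 mg/kg. No group overlapped another, although the third CD8 pool at 50 mg/kg lay well under the other two. The log2 change at 50 mg/kg was 1.05 ± 0.040 in CD4 cells, a 2.07-fold rise, and 1.00 ± 0.057 in CD8 cells (edgeR adjusted p 2.54e-15 and 2.99e-11). With total-UMI scaling the values were 0.61 and 0.47, and both passed.

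*Lcp2*, which encodes the adaptor SLP-76, was lower with CSA at either dose. CD4 pools stood at 366, 355 and 352 TMM CPM in saline, at 276, 260 and 286 with 5 mg/kg, and at 276, 277 and 264 with 50 mg/kg. CD8 pools stood at 226, 240 and 237, then 159, 180 and 187, then 179, 185 and 166. Saline pools lay above every CSA pool, and the CSA groups overlapped. *Lcp2* fell by 0.39 ± 0.042 in CD4 and by 0.41 ± 0.054 in CD8 cells at 50 mg/kg on the log2 scale with TMM (edgeR adjusted p 4.18e-08 and 2.13e-06), and the change was −0.83 and −0.94 with total-UMI scaling.

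**Figure D2:**
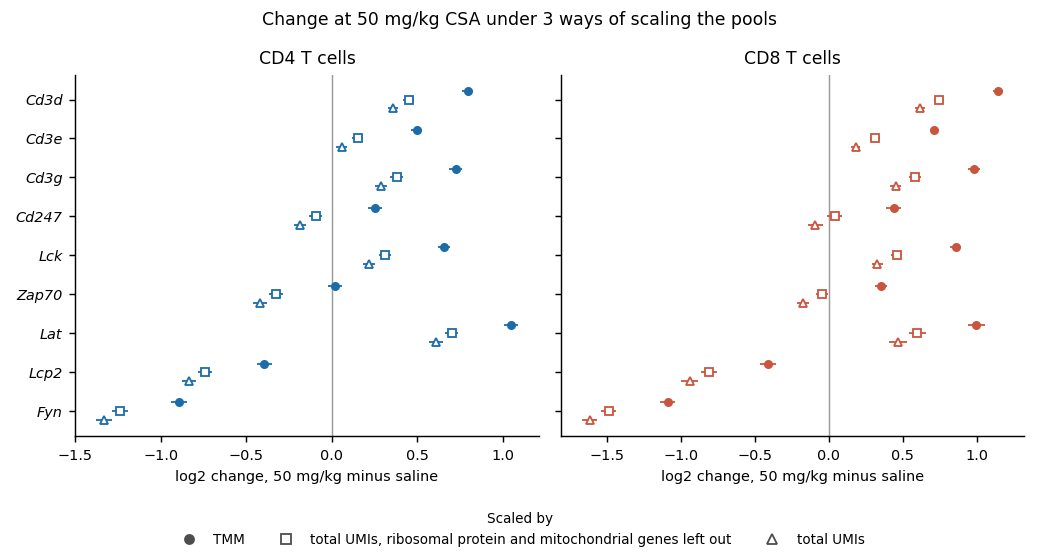
Log2 change at 50 mg/kg CSA against saline (horizontal axis) for the 9 genes under TMM (filled circles), total UMIs (triangles) and total UMIs without ribosomal protein and mitochondrial genes (squares), with CD4 cells left, CD8 cells right and bars of 1 SE. *Fyn* and *Lcp2* lie left of 0 and *Cd3d*, *Cd3e*, *Cd3g*, *Lck* and *Lat* right of it under all 3 scalings, while *Cd247* and *Zap70* change sides.

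Ratios of members within a pool need no scaling. *Fyn* UMIs per *Lck* UMI were 0.539 ± 0.027 (SD, n = 3 pools) in saline CD4 cells, 0.354 ± 0.018 at 5 mg/kg and 0.185 ± 0.0065 at 50 mg/kg. In CD8 cells the same ratio was 0.528 ± 0.016, 0.298 ± 0.028 and 0.137 ± 0.0029. *Lcp2* per *Lat* went from 0.767 ± 0.040 through 0.406 ± 0.012 to 0.282 ± 0.0073 in CD4 cells and from 0.668 ± 0.044 through 0.332 ± 0.027 to 0.253 ± 0.013 in CD8 cells. None of these ratios overlapped between groups. *Zap70* per *Lck* was 0.545, 0.507 and 0.350 in CD4 cells and 0.427, 0.377 and 0.302 in CD8 cells. Within the receptor, *Cd247* per *Cd3d* was 0.423, 0.360 and 0.290 in CD4 cells, and 0.322, 0.264 and 0.197 in CD8 cells. *Cd3e* per *Cd3d* went from 0.972 to 0.790 in CD4 and from 1.10 to 0.813 in CD8 cells across the same groups. *Cd3g* kept closer to *Cd3d*, with ratios of 0.961, 0.890 and 0.914 in CD4 cells and 0.930, 0.821 and 0.829 in CD8 cells. A ratio shows unequal change of its genes and not which of them changed.

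Per cell, without any scaling, *Fyn* was the member whose UMIs were lower at 50 mg/kg than in saline in all pools of both lineages, at 0.971 ± 0.051 against 1.32 ± 0.12 per CD4 cell and 0.841 ± 0.063 against 1.54 ± 0.063 per CD8 cell. *Lcp2* UMIs per CD8 cell were also lower in all pools, at 1.22 ± 0.054 against 1.40 ± 0.088, while per CD4 cell they were 1.64 ± 0.016 against 1.59 ± 0.041. The other 7 members had more UMIs per cell in all pools at 50 mg/kg, for example 5.84 ± 0.10 against 2.08 ± 0.15 *Lat* UMIs per CD4 cell. The share of all genes that did so was not counted, so this sets no member apart. As a share of total UMIs, *Zap70* pools at 50 mg/kg lay below saline in both lineages, and *Cd247* pools did so in CD4 cells. Total UMIs per cell rose with dose as given above, and the part of depth in these values was not tested.

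The step from 5 to 50 mg/kg separated the members further. In CD4 cells 7 members passed, 4 higher and 3 lower, where 41.2% of all genes did. In CD8 cells 6 passed, 5 higher and 1 lower, where 41% of all genes did. With total-UMI scaling 8 passed in CD4 cells (4 higher, 4 lower) and 5 in CD8 cells (4 higher, 1 lower). The shares of all genes given for this step are those with TMM. *Fyn* had the largest fall in this step, by 0.67 ± 0.048 in CD4 cells and by 0.75 ± 0.053 in CD8 cells on the log2 scale. *Lat* had the largest rise in CD4 cells, 0.52 ± 0.040, and rose by 0.41 ± 0.057 in CD8 cells. *Cd3e* differed by −0.00 ± 0.033 between the doses in CD4 cells (edgeR adjusted p = 0.989) and rose by 0.17 ± 0.033 in CD8 cells. These values by gene are with TMM. As CPM of total UMIs (mean ± SD), *Cd3e* went from 1078 ± 32 to 1019 ± 3.8 in CD4 cells and from 1078 ± 22 to 1129 ± 6.5 in CD8 cells. *Zap70* fell by 0.27 ± 0.042 and *Cd247* fell by 0.12 ± 0.039 in this step in CD4 cells. *Lcp2* differed by −0.01 ± 0.044 in CD4 and 0.00 ± 0.057 in CD8 cells and passed in neither.

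The clusters named in the deposited table of cells made it possible to ask whether members moved inside one kind of cell. There were 13 CD4 and 9 CD8 clusters, and a cluster was tested where at least 2 pools of each group held 10 cells. At 50 mg/kg against saline 61 of 99 member-by-cluster pairs passed in CD4 cells (44 higher, 17 lower), where 30.2% of all gene-by-cluster pairs did, and 52 of 72 passed in CD8 cells (39 higher, 13 lower), where 43.4% did. At 5 mg/kg the counts were 31 of 99 in CD4 cells (25 higher, 6 lower) against 13% of all pairs, and 44 of 81 in CD8 cells (35 higher, 9 lower) against 20.4%. Between the doses 30 pairs passed in each lineage, against 13.2% of all pairs in CD4 and 14.4% in CD8 cells. Clusters share pools and are not independent. The shares of all pairs given here are those with TMM. With total-UMI scaling 51 pairs passed in CD4 cells at 50 mg/kg (29 higher, 22 lower) and 48 in CD8 cells (29 higher, 19 lower), and at 5 mg/kg 19 (6 higher, 13 lower) and 21 (8 higher, 13 lower).

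*Fyn* was lower at 50 mg/kg in 10 of 11 CD4 clusters and 7 of 8 CD8 clusters, counts that were the same with total-UMI scaling. The deepest fall was in CD8 cluster C5, the cluster with features of follicular helper and precursor cells, at −1.40. *Lat* was higher in 10 of 11 and 7 of 8 clusters, or 9 and 5 with total-UMI scaling, with its largest rises in the effector clusters CD4 C0 (1.29) and CD8 C0 (1.40). *Cd3d* was also higher in 10 of 11 and 7 of 8, or 6 and 7 with total-UMI scaling. *Lck* was higher in 7 of 11 and 7 of 8, or 6 and 6 with total-UMI scaling. *Lcp2* was lower in 5 of 11 and 6 of 8 clusters, or 6 and 7 with total-UMI scaling.

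*Zap70* did not move in one direction within CD4 clusters. It rose in C0 by 0.33, and was lower in C1 (−0.35) and C3 (−0.30), the effector and cycling clusters with less activation RNA. With total-UMI scaling no CD4 cluster had higher *Zap70* and 4 had lower. Exceptions to the *Fyn* pattern were CD4 C6, the cycling effector cluster, in which 2 pools at 50 mg/kg held enough cells and the change was 0.15, and CD8 C7, in which it was −0.18 and did not pass. In CD8 C7 *Cd3g* was the only member that passed, where 3.57% of the genes tested in that cluster did. CD8 C4, the cycling effector cluster, was not tested at 50 mg/kg because too few of its cells remained, and neither were the small CD4 clusters C11 and C12.

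**Figure D3:**
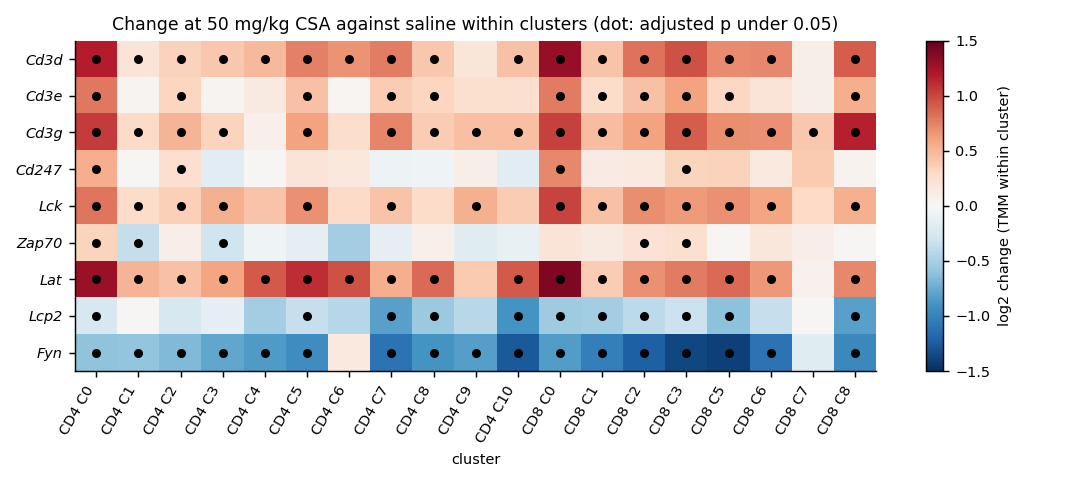
Log2 change at 50 mg/kg CSA against saline (colour, TMM within each cluster) for the 9 genes (rows) in 11 CD4 and 8 CD8 clusters (columns), with a dot where the edgeR adjusted p was under 0.05. *Fyn* is blue with a dot in 10 CD4 and 7 CD8 clusters, *Lat* red with a dot in 10 and 7, and *Zap70* is mixed in CD4 clusters; with total-UMI scaling *Zap70* has no higher call, and *Cd247* has 2 lower calls and none higher in CD4 clusters.

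CD4 and CD8 cells of the same pools were then compared, in 1 fit of all 18 sums with the pool as a block. In saline 8 members were lower in CD8 cells, *Cd3e* being the exception, where 40.4% of all genes differed between the lineages. The largest differences were *Lcp2* at −0.53 ± 0.041, *Cd247* at −0.52 ± 0.037 and *Zap70* at −0.44 ± 0.039 on the log2 scale, each lower in CD8 cells in 3 of 3 pools. At 5 mg/kg 6 were lower and none higher, where 34.3% of all genes differed. At 50 mg/kg 3 were higher in CD8 cells (*Cd3d*, *Cd3e* and *Lck*) and 5 lower, where 30.4% of all genes differed. *Lck* at 50 mg/kg was close to the threshold, at 0.08 ± 0.028 (edgeR adjusted p = 0.0338), and with total-UMI scaling it was −0.01. *Cd247*, *Lat* and *Lcp2* were lower in CD8 cells in all 15 settings tried at each treatment. Some of these calls were lost when 1 pool was left out. In saline this held for *Lck* without pool 1 or 2 and for *Fyn* without pool 2, with values of −0.10 to −0.08 and −0.15 to −0.07 over the 9 pools left out in turn. At 50 mg/kg it held for *Lck* without any 1 of the 50 mg/kg pools and for *Zap70* without pool 1 or 2, with values of 0.07 to 0.09 and −0.18 to −0.10. Without the cycling clusters the saline count was 5, with 1 higher and 4 lower, and *Cd3d* moved from −0.12 to 0.07. The share of all genes that differed without those clusters is not given. Summed cycling markers in saline were 2645 to 2821 CPM in CD8 pools and 1655 to 1814 in CD4 pools.

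With TMM, the change at 50 mg/kg itself differed between the lineages for 7 of 9 members, where 19.7% of all genes did. With total-UMI scaling 6 passed, 4 higher and 2 lower. With TMM it was higher in CD8 cells for *Cd3d* (0.32 ± 0.041, edgeR adjusted p = 2.92e-06), *Zap70* (0.31 ± 0.054), *Cd3g* (0.23 ± 0.041), *Cd3e* (0.19 ± 0.040), *Lck* (0.17 ± 0.041) and *Cd247* (0.16 ± 0.051), and lower for *Fyn* (−0.22 ± 0.065). *Lat* and *Lcp2* did not pass, at −0.08 ± 0.052 and −0.04 ± 0.059. *Cd3d* and *Zap70* passed in all 15 settings, whereas *Fyn* passed in 9 and *Cd247* in 7. Leaving out a single pool ended both calls. For *Fyn* this held without saline pool 1 or 3 or 50 mg/kg pool 1 or 3, with values of −0.28 to −0.19 and an edgeR adjusted p up to 0.0745 over the 9 pools left out in turn. For *Cd247* it held without saline pool 2 or 3 or 50 mg/kg pool 1 or 2, with values of 0.15 to 0.18 and an adjusted p up to 0.105. Without the cycling clusters 3 members passed, all higher in CD8 cells. The share of all genes called there or with total-UMI scaling is not given, so those counts set no member apart. At 5 mg/kg none of the 9 differed by the edgeR test, where 3.66% of all genes did. There, 2 of 9 had an unadjusted p under 0.05 and DESeq2 called 0.

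Levels in the saline clusters describe where each member was most abundant, with no test, since the clusters rest on these very counts. Values are CPM of total UMIs, mean ± SD of 3 pools, and neighbours are called apart when their means differ by more than the sum of their SDs. *Zap70* was highest in CD4 C7 at 591 ± 52, apart from the next cluster, C0, at 409 ± 16. From C0 down to C9, at 168 ± 76, no neighbours were apart. In CD8 cells *Zap70* was highest in C8 at 408 ± 39 and lowest in C7 at 163 ± 23, both apart from their neighbours.

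*Fyn* was highest in CD4 C4, the follicular helper cluster, at 609 ± 41, and lowest in C1 at 209 ± 29, though C4 was not apart from the interferon-response cluster C10 at 485 ± 168, nor C1 from C9 at 239 ± 48 or C3 at 243 ± 27. In CD8 cells it was highest in C5 at 487 ± 27, followed by C0 at 428 ± 9.8, and lowest in C7 at 184 ± 27. *Lcp2* was highest in CD4 C7 at 687 ± 122 and in CD8 C8 at 486 ± 31, and lowest in CD4 C3 at 241 ± 27 and CD8 C7 at 126 ± 29. In CD4 cells C7 was not apart from C4 at 533 ± 44, nor C3 from C1 at 253 ± 15 or C9 at 310 ± 75. *Lat* ran the other way in CD8 cells, with its highest level in C7 at 733 ± 31, apart from C1 at 507 ± 27. In CD4 cells *Lat* was 683 ± 103 in C9 and 677 ± 82 in C7, which were not apart. *Cd3d* was lowest in the cycling effector clusters, at 673 ± 26 in CD4 C6 and 656 ± 32 in CD8 C4, and highest in CD4 C2 at 1455 ± 48 and CD8 C1 at 1320 ± 28. The first was not apart from C10 at 1246 ± 246, nor the second from C7 at 1264 ± 111 or C5 at 1241 ± 73.

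**Figure D4:**
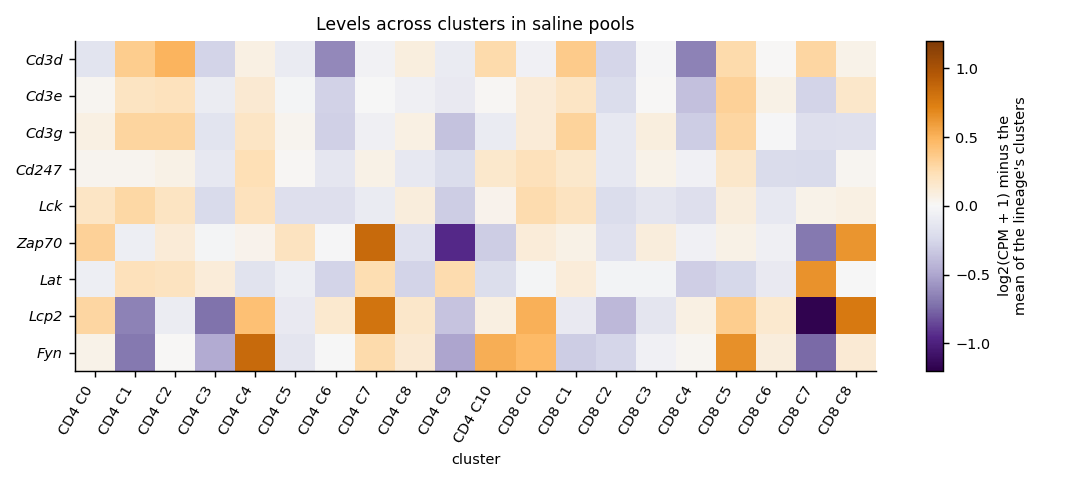
Level of each of the 9 genes (rows) in the saline pools of 11 CD4 and 9 CD8 clusters (columns), as log2(CPM + 1) minus the mean of the clusters of the same lineage (colour). *Fyn* is highest in CD4 C4 and CD8 C5, *Zap70* and *Lcp2* in CD4 C7 and CD8 C8, and *Lat* in CD8 C7.

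Zeta-like ITAM adaptors can stand in for the CD3 chains in other cells, namely *Fcer1g* (Fc receptor gamma chain) and *Tyrobp* (DAP12), with *Syk* as the kinase in place of Zap70. *Fcer1g* was highest in CD4 C8 at 438 ± 88 CPM and CD8 C6 at 408 ± 67, and *Tyrobp* was 296 ± 85 and 263 ± 112 there. These clusters also held the highest summed myeloid markers, 1487 CPM in CD4 C8 and 1240 in CD8 C6 over the cells of all groups. At 50 mg/kg 1 of the 3 genes was lower in CD4 cells and none higher. In CD8 cells 1 was higher and 1 lower, and *Tyrobp* was the one higher, by 0.64 ± 0.21 with pools that overlapped (edgeR adjusted p = 0.0109). With total-UMI scaling 1 was lower in CD4 cells, 2 were lower in CD8 cells and none was higher.

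Likeness was measured by Pearson r over the 22 cluster means of log2(CPM + 1), centred within each lineage, against 6100 genes. These correlations are descriptions over clusters that share libraries and differ in depth. Each cluster mean took every pool with at least 10 cells, from all 3 treatment groups, so changes with dose can enter it. The mix of doses differed by cluster, with 6 such pools for CD8 C4, 5 for CD4 C11 and 3 for CD4 C12. *Cd3e* and *Cd3g* were each other's closest gene (r = 0.92). *Cd3d* was closest to *Trbc2*, a TCR beta constant chain (0.92), followed by *Uqcc3* (0.91) and *Limd2* (0.90). *Zap70* was closest to *Sh2d2a*, the T cell-specific adaptor TSAd (0.92), followed by *Ndfip1* (0.89) and *Nfkbib* (0.88).

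*Fyn* was closest to *Hivep2* (0.96), *Etv6* (0.94) and *Cog5* (0.93). *Lcp2* was closest to *Hif1a* (0.87), *Nfatc1*, an NFAT family member (0.87), and *Irf4*, a transcription factor induced by TCR signals (0.86). *Lat* was closest to *Psme1* (0.80), *Mrpl30* (0.78) and *Tpt1* (0.78), *Lck* to *Rnf138* (0.82), *Pink1* (0.78) and *Rchy1* (0.78), and *Cd247* to *Ms4a4b* (0.71), *Ms4a6b* (0.70) and *Traf3ip2* (0.70). Among the members themselves, *Fyn* and *Lcp2* had r = 0.68 with each other, and r = −0.50 and −0.42 with *Lat*.

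The other genes of the pathway were taken from lists of known function that hold 46 genes. Of the 3 TCR constant chains, 2 rose in CD4 cells at 50 mg/kg and all 3 in CD8 cells, where 70.5% and 74% of all genes were called in either direction. With total-UMI scaling 1 was higher and 1 lower in CD4 cells, and 2 were higher and 1 lower in CD8 cells. *Trbc2* changed by 0.73 ± 0.052 and 0.81 ± 0.047, and *Trbc1* by 0.61 ± 0.082 and 0.98 ± 0.065, in CD4 and CD8 cells respectively. *Trac* rose in CD8 cells by 0.34 ± 0.043, a direction that turned with total-UMI scaling.

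Of 21 downstream kinases, adaptors and activators, 6 were higher, 10 lower and 5 not called in each lineage at 50 mg/kg, so that 16 of 21 were called where 70.5% of all genes were in CD4 and 74% in CD8 cells. With total-UMI scaling 1 was higher and 19 lower in each. *Themis*, a T cell adaptor bound to the LAT complex, fell by 1.23 ± 0.049 in CD4 and by 1.28 ± 0.050 in CD8 cells. *Rasgrp1*, the diacylglycerol-activated exchange factor for Ras, fell by 0.75 ± 0.061 and by 0.74 ± 0.063. *Ptprc* (CD45), the phosphatase that keeps Lck and Fyn active, fell by 0.64 ± 0.032 and by 0.84 ± 0.043. *Unc119*, a trafficking chaperone of Lck and Fyn, rose by 0.79 ± 0.080 and 0.86 ± 0.060 and stayed higher with total-UMI scaling. *Cd2* (0.36 and 0.42), *Nck1* in CD4 cells (0.23) and *Skap1* in CD8 cells (0.42) were higher with TMM, and each turned negative with total-UMI scaling.

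Of 19 negative regulators, 6 were higher, 8 lower and 5 not called in CD4 cells, and 11 were higher, 7 lower and 1 not called in CD8 cells, against the same 70.5% and 74% of all genes called. Total-UMI scaling gave 4 higher and 14 lower in CD4 and 2 higher and 13 lower in CD8 cells. *Sit1*, a transmembrane adaptor that recruits SHP2, rose by 1.21 ± 0.063 and 1.16 ± 0.072, *Cd6* by 1.06 ± 0.050 and 1.18 ± 0.063, and *Dok2* by 1.10 ± 0.065 and 0.57 ± 0.075. In CD8 cells *Dok2* was not among the 2 called higher with total-UMI scaling, where the median of all genes was −0.53. *Cbl*, a ubiquitin ligase that targets activated receptors, fell by 1.05 in both lineages. *Pag1*, the membrane anchor of the kinase Csk, fell by 1.00 ± 0.062 and by 0.98 ± 0.071. *Cblb* fell by 1.14 ± 0.047 in CD8 cells and *Lax1* by 0.52 ± 0.068 in CD4 cells. The median log2 change at 50 mg/kg was −0.16 and −0.09 over the downstream list and 0.07 and 0.19 over the negative regulators, in CD4 and CD8 cells.

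**Figure D5:**
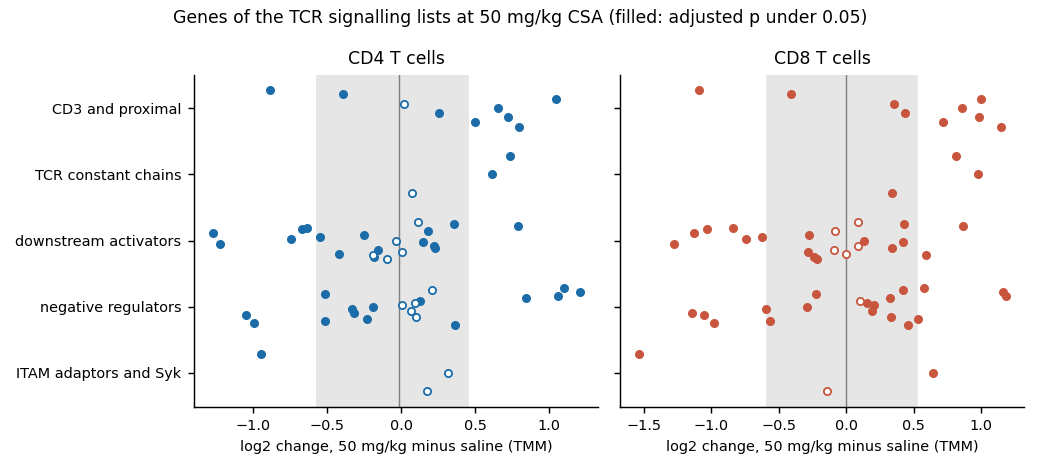
Log2 change at 50 mg/kg CSA against saline with TMM (horizontal axis) for each gene (points) of the 9 members and the 4 other lists, in CD4 and CD8 cells, filled where the edgeR adjusted p was under 0.05, with the interquartile range of all genes as the grey band and their median as the line. Of the downstream activators 6 are called higher and 10 lower in each lineage, which becomes 1 and 19 with total-UMI scaling.

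Other marker lists moved with dose, and their part in the members' changes was not tested. All 4 cycling markers were detected, and their sum went from 1655 to 1814 CPM in saline CD4 pools to 1074 to 1162 at 50 mg/kg, and from 2645 to 2821 to 1022 to 1247 in CD8 pools. The 3 follicular helper markers went from 639 to 662 CPM to 140 to 183 in CD4 pools. *Cd4* itself went from 725 to 773 CPM to 315 to 329 in the CD4 pools. The 5 erythroid markers went from 3.21 to 14.5 CPM to 27.7 to 36.6 in CD4 and from 3.89 to 17.6 to 23.8 to 48.1 in CD8 pools. Without the cycling clusters the numbers of members called against saline were the same at both doses in both lineages. With cluster shares held at their mean, 4 and 5 members were called at 5 mg/kg in CD4 and CD8 cells, in place of 9. That setting also left out TMM and the clusters with few cells. Total-UMI scaling alone lowered the counts at 5 mg/kg as well, as given above, and the part of the cluster shares was not tested.

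The TEa cells, 123, 130 and 27 in the saline, 5 mg/kg and 50 mg/kg groups, gave a view of the same genes in a single TCR specificity, as CPM of total UMIs with SD over 3 pools and no test. *Fyn* was 353 ± 74 CPM in TEa cells and 358 ± 18 in the other CD4 cells of the saline group, and 118 ± 21 and 142 ± 2.5 at 50 mg/kg. *Lat* was 502 ± 46 against 561 ± 19 in saline and 726 ± 116 against 858 ± 44 at 50 mg/kg. *Lcp2* was 393 ± 62 against 430 ± 7.2 in saline and 218 ± 100 against 242 ± 7.4 at 50 mg/kg. *Cd3e* was 990 ± 33 against 979 ± 26 in saline and 901 ± 138 against 1019 ± 3.8 at 50 mg/kg. It was the only member whose mean moved in opposite directions in TEa and other CD4 cells. TEa pools at the higher dose held few cells, and their SDs were several times those of the other CD4 cells.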

How the data were processed

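Spleen T cells of 3 treatment groups were measured by 10x 5′ single-cell RNA sequencing with hashtag antibodies. Per the labels, the authors used Cell Ranger, Seurat 3.0.0 and the mouse build mm10 (GRCm38), and they deposited UMI counts per gene and cell, unnormalised, for the cells they had kept. Doublets and poor cells were taken as already handled in that choice of cells, and no further filter was applied. Pools, lineages, clusters and TEa status came from the deposited tables of cells; deposited fraction values of those tables, such as mitochondrial shares, entered no test. For every cell the summed counts equalled the deposited total.

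Counts were summed per pool and lineage (and per cluster) without TEa cells. Genes were kept by filterByExpr and scaled by TMM, and all 9 pools of a lineage were fitted with edgeR 4.0.16 (glmQLFit, glmQLFTest) in R 4.3.3. DESeq2 1.42.0 and limma 3.58.1 served as alternatives, Python 3.11.15 for sums and tables. The tests were checked on simulated counts in which most genes did not change. TMM takes this to hold, so the check does not bear on the choice of scaling. Pools are separate mice within 1 capture per group, so p-values measure the spread between pools. The members and lists were chosen with earlier results of these data known. The text names all 9 members, from each list in each lineage up to 3 genes with the largest rise and up to 3 with the largest fall at 50 mg/kg among those called at a mean of at least 20 CPM, and for each member the 3 genes with the most similar cluster pattern. The results of some cell type marker lists are not reported here. Some genes overlap a member on the other strand, such as *Pou2f1* at *Cd247*, and whether any reads were shared was not tested. Same-numbered hashtag pools did not deviate together (correlations from −0.078 to 0.063), so the number was not used as a block.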

Additional observations from a re-analysis of the deposited data

Results flagged for a closer look

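There were 7 values that stood out because the change at 50 mg/kg of CSA differed between CD8 and CD4 cells by a test of the difference itself, the lineage-by-dose term of the edgeR fit over 18 pool sums. The CD8 change minus the CD4 change, on the log2 scale, was 0.32 for *Cd3d*, 0.19 for *Cd3e*, 0.23 for *Cd3g*, 0.16 for *Cd247*, 0.17 for *Lck* and 0.31 for *Zap70*, and −0.22 for *Fyn*. Over all genes tested 19.7% passed the same test. These are values with TMM. Of the 15 settings tried, *Fyn* passed in 9 and *Cd247* in 7, and without the cycling clusters 3 members passed. Single pools were not screened for outlying values, since groups of 3 are too small for the test of a gap to the nearest value.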

How the results depend on the processing

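Of 756 alternative values of the members' dose changes, 712 kept direction and side of the threshold, 19 kept direction and missed the threshold, and 25 turned. With total-UMI scaling *Zap70* was −0.069 and −0.42 in CD4 cells and −0.12 and −0.18 in CD8 cells (5 and 50 mg/kg), and *Cd247* at 50 mg/kg was −0.18 and −0.092. Without ribosomal protein and mitochondrial genes in the totals, *Zap70* at 50 mg/kg was −0.33 and −0.047 and *Cd247* in CD4 cells −0.092. With cells weighted equally, *Zap70* was −0.12 and −0.38 in CD4 and −0.16 and −0.17 in CD8 cells, *Cd247* −0.0058 and −0.12 in CD4 and −0.044 in CD8 cells at 50 mg/kg, and *Lck* −0.010 in CD4 cells at 5 mg/kg. With cluster shares held at their mean, *Zap70* was −0.11 and −0.28 in CD4 and −0.12 and −0.21 in CD8 cells, and *Cd247* −0.035 and −0.096 in CD4 and −0.044 in CD8 cells at 50 mg/kg. None of the settings named so far used TMM, so these turns are not independent of one another. The equal-cell and held-share settings were limma fits on CPM, the second on the clusters with at least 10 cells in every pool. Leaving out each pool in turn gave −0.0054 (without saline pool 3) to 0.045 for *Zap70* in CD4 cells at 50 mg/kg. For CD8 minus CD4, 458 of 504 values kept direction and side, and 7 turned: outside the cycling clusters *Cd3d* was 0.073 in saline and 0.080 at 5 mg/kg, *Lck* 0.040 and 0.061, and *Fyn* 0.035 in saline, and with total-UMI scaling at 50 mg/kg *Cd3g* was −0.034 and *Lck* −0.014. Counts moved by over 1.5 times in 9 of 532 values. With cluster shares held, 4 members and 3099 genes passed in CD4 and 5 members in CD8 cells at 5 mg/kg. Outside the cycling clusters, 2835 genes and 18 list genes passed between the doses in CD8 cells, 5 members differed between the lineages in saline, and 3 differed in their change at 50 mg/kg. With total-UMI scaling 19 and 21 member-by-cluster pairs passed at 5 mg/kg in CD4 and CD8 cells. The causes were not tested. The hashtag number as a replicate block gave 9 and 8 members called in CD4 and 9 and 9 in CD8 cells, and moved no count of calls by over 1.5 times; hashtag numbers share only a name. Depth limits the small clusters most.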
